A study of Mus musculus with 16 samples.

Results

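The 10 genes described here are ones that astrocytes of injured or diseased brain are known to raise: Gfap, Vim, Nes, Synm, Serpina3n, Aspg, Ggta1, Cd44, S1pr3 and Steap4. They were taken by symbol from the deposited count table, and all 10 were found among its 49671 gene rows. The table came from bulk RNA sequencing of the hippocampus of female mice aged 8 months, in 16 libraries. PS19 mice carry a transgene for human tau with a mutation of familial frontotemporal dementia, driven by the mouse prion protein promoter. The transgene was crossed with a knockout of p16, the cell cycle inhibitor encoded by Cdkn2a. The 4 groups, each of 4 libraries, were WT (no transgene, p16 intact), p16KO (no transgene, p16 knocked out), PS19 (transgene, p16 intact) and PS19_p16KO (transgene, p16 knocked out). The labels give no strain background, nothing on how the knockout was made and nothing on pooling of animals. The labels do not state that each library is a different animal, and p-values therefore describe the spread between libraries, which may be technical.

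Astrocytes support synapses, take up glutamate and potassium and contact blood vessels. When neurons are damaged or microglia are activated, astrocytes enlarge and build up a network of intermediate filaments, a state called reactive. GFAP is the main filament protein of mature astrocytes, vimentin and nestin are filament proteins of immature and reactive astrocytes, and synemin joins their filaments. Other genes of the state do not code for filament proteins. Serpina3n codes for a secreted protease inhibitor, Aspg for an asparaginase and Ggta1 for the galactosyltransferase that makes the alpha-Gal sugar. Cd44 codes for the hyaluronan receptor, S1pr3 for a receptor for a sphingolipid signal and Steap4 for a metalloreductase. Several are not specific to astrocytes. Vim and Nes are also expressed by vascular cells, Cd44 by immune cells and S1pr3 by mural cells.

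The start sites of 4 genes are shown because their levels bear on the comparisons below: Gfap, Ggta1 and Aspg passed the test, and Serpina3n followed a course of its own. Each window runs 5′ to 3′ on the gene's strand from 250 bases before to 50 bases after the RefSeq start in GRCm38.p6. Matches to the motifs listed below are in capitals. The windows are chr11:102897151-102897450 on the minus strand for Gfap, chr2:35461400-35461699 on the minus strand for Ggta1, chr12:112106433-112106732 on the plus strand for Aspg and chr12:104406458-104406757 on the plus strand for Serpina3n.
Gfap: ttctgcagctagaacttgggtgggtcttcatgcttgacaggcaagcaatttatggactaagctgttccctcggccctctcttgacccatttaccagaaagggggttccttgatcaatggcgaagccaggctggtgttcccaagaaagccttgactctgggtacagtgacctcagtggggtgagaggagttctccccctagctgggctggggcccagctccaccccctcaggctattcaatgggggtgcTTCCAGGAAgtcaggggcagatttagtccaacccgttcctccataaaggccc
Ggta1: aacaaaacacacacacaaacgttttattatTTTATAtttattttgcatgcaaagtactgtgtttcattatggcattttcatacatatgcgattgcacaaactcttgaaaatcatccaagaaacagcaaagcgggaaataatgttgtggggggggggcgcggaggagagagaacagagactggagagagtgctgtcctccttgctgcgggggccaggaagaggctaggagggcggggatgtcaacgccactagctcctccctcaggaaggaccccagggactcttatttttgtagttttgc
Aspg: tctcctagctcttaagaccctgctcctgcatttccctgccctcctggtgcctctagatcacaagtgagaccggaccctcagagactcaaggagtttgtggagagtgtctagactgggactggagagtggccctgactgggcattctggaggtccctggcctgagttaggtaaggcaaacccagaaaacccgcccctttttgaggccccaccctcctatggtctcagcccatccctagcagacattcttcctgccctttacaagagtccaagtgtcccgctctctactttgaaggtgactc
Serpina3n: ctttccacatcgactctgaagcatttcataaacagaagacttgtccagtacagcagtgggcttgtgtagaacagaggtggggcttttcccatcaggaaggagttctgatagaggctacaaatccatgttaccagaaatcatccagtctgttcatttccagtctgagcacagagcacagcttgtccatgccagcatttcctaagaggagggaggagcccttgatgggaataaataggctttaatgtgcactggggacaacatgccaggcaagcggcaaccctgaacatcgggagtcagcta

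A search on both strands for 4 motifs was made in the windows of all 10 genes and of 32851 RefSeq starts. The STAT motif TTCNNNGAA lay in the windows of Gfap and Steap4 and in 8.3% of all windows, and in Gfap it began 2 bases before the start. The TATA box TATAAA lay in Vim, Ggta1 and Steap4 and in 13.6% of all windows. In Ggta1 its match is on the other strand, 220 bases before the start. The CCAAT box lay in Vim and Synm and in 37.4% of all windows, and the AP-1 motif TGANTCA in none of the 10 and in 7.81% of all. These are letter matches in a short window. The GENCODE models of Gfap, Ggta1 and Vim reach 5′ beyond their windows, to positions 102900912, 35463231 and 13573927.

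Depth was 18485552 to 22311322 gene counts a library. CPM below is a gene's count per 1000000 gene counts of its library after TMM scaling, and RPKM is that value per kilobase of exon. Cdkn2a, which p16 shares with p19Arf, summed to 8 counts in WT, 3 in p16KO, 18 in PS19 and 2 in PS19_p16KO. Prnp, whose promoter drives the transgene, lay at 1502 to 1965 CPM in transgenic libraries and at 988.5 to 1077 in the others. The 14 astrocyte identity markers (among them Aqp4, Slc1a2 and Aldh1l1) were all present, with a summed level of 6529 to 9337 CPM. Choroid plexus markers summed to 5751 CPM in PS19_p16KO replicate 3, 3407 in p16KO replicate 4 and 896 in WT replicate 1, against 57.0 to 233 in the other 13. These 3 are called the choroid-rich libraries, and the counts of the main comparisons are also given without them.

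Among the filament genes, Gfap (chr11:102887336-102900912, minus strand) was the most abundant. Its level was 563, 484, 600 and 448 CPM in WT replicates 1 to 4, and 684, 525, 516 and 476 CPM in p16KO. In PS19 it was 2750, 2173, 898 and 1680 CPM, and in PS19_p16KO 607, 651, 626 and 596 CPM. Every PS19 library lay above all 12 others, and replicate 3 was nearest to them. The mean was 524 CPM ± 69.9 (SD, n = 4) in WT, 550 ± 91.9 in p16KO, 1875 ± 784 in PS19 and 620 ± 24.3 in PS19_p16KO. The spread relative to the mean was widest in PS19 (41.8%) and narrowest in PS19_p16KO (3.92%).

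Vim (chr2:13573927-13582826), which codes for vimentin, was at 49.8, 36.3, 53.3 and 36.6 CPM in WT and at 49.99, 54.3, 43.1 and 43.7 in p16KO. In PS19 it was at 119.9, 101, 49.9 and 70.7 CPM, and in PS19_p16KO at 44.2, 45.6, 52.1 and 44.8. PS19 replicates 1, 2 and 4 exceeded every other library, while PS19 replicate 3 lay within the range of the other groups. Nestin (Nes, chr3:87971078-87980451) ranged from 8.08 to 12.2 CPM over the 16 libraries, and its 4 group means lay between 9.74 and 10.7. Synemin (Synm, chr7:67730160-67759742) ranged from 62.5 to 80.4 CPM, with group means of 69.1 to 73.6. Nes and Synm therefore overlapped in all 4 groups. Exons of Synm overlap those of Ttc23 and Gm45102 on the opposite strand, and with the strand setting unknown here, Synm counts may include their reads.

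Aspg (chr12:112106679-112127559), which codes for an enzyme that cleaves asparagine, was the scarcest gene to pass the filter, with 28 to 178 counts a library. It was at 1.46, 1.85, 2.37 and 2.15 CPM in WT and at 2.92, 2.36, 1.54 and 1.51 in p16KO. In PS19 it was at 9.59, 5.98, 2.10 and 5.43 CPM, and in PS19_p16KO at 1.96, 1.65, 2.38 and 1.91. PS19 replicates 1, 2 and 4 were above every other library and replicate 3 lay among them. Ggta1 (chr2:35400179-35463231) was at 4.27, 4.91, 3.79 and 4.56 CPM in WT and at 6.66, 4.66, 4.67 and 4.11 in p16KO. PS19 libraries had 15.9, 13.4, 6.85 and 7.17 CPM, and PS19_p16KO libraries had 3.91, 3.51, 6.09 and 5.19. All PS19 libraries were above all others, by a small margin over p16KO replicate 1 for replicates 3 and 4.

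Serpina3n (chr12:104406729-104414329), a secreted inhibitor of serine proteases, varied as widely within groups as between them. It was at 58.4, 162, 64.1 and 157 CPM in WT and at 63.8, 175, 144 and 161 in p16KO. In the PS19 group the level was 220.2, 217, 172 and 105 CPM, and in PS19_p16KO 182, 60.1, 179 and 227. Low libraries, at 58.4 to 64.1 CPM, occurred in WT (replicates 1 and 3), p16KO (replicate 1) and PS19_p16KO (replicate 2), and the highest library was PS19_p16KO replicate 4. The groups overlapped throughout. Serpina3n lies in a cluster of paralogs, between which reads can be split. Of the paralogs looked at, Serpina3k had 0 counts. Serpina3g had the most, with 123 counts in WT, 152 in p16KO, 143 in PS19 and 146 in PS19_p16KO. Serpina3c, Serpina3f, Serpina3h, Serpina3i and Serpina3m had fewer in every group.

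Of the surface genes, Cd44 (chr2:102811141-102901665) was at 6.46, 5.81, 6.06 and 5.75 CPM in WT and at 6.84, 5.43, 5.90 and 5.78 in p16KO. In PS19 it was at 18.9, 10.9, 5.13 and 8.15 CPM, and in PS19_p16KO at 5.01, 4.41, 5.57 and 4.20. PS19 replicates 1, 2 and 4 were above all other libraries, and PS19 replicate 3 was below all of WT. S1pr3 (chr13:51408639-51422797) was at 9.38, 8.55, 9.80 and 9.18 CPM in WT and at 10.4, 11.1, 6.72 and 8.44 in p16KO. PS19 libraries had 25.6, 15.6, 9.39 and 12.4 CPM, and PS19_p16KO libraries had 8.06, 9.41, 7.74 and 8.19. Here too PS19 replicates 1, 2 and 4 were the 3 highest libraries of the 16. Steap4 (chr5:7960457-7982213) had 9, 2, 2 and 0 counts in WT, 2, 10, 2 and 36 in p16KO, 6, 7, 7 and 1 in PS19 and 2, 2, 25 and 1 in PS19_p16KO. Its highest libraries, p16KO replicate 4 and PS19_p16KO replicate 3, were also the richest in choroid plexus markers. Steap4 failed the filter on low counts and has no edgeR test.

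**Figure D1:**
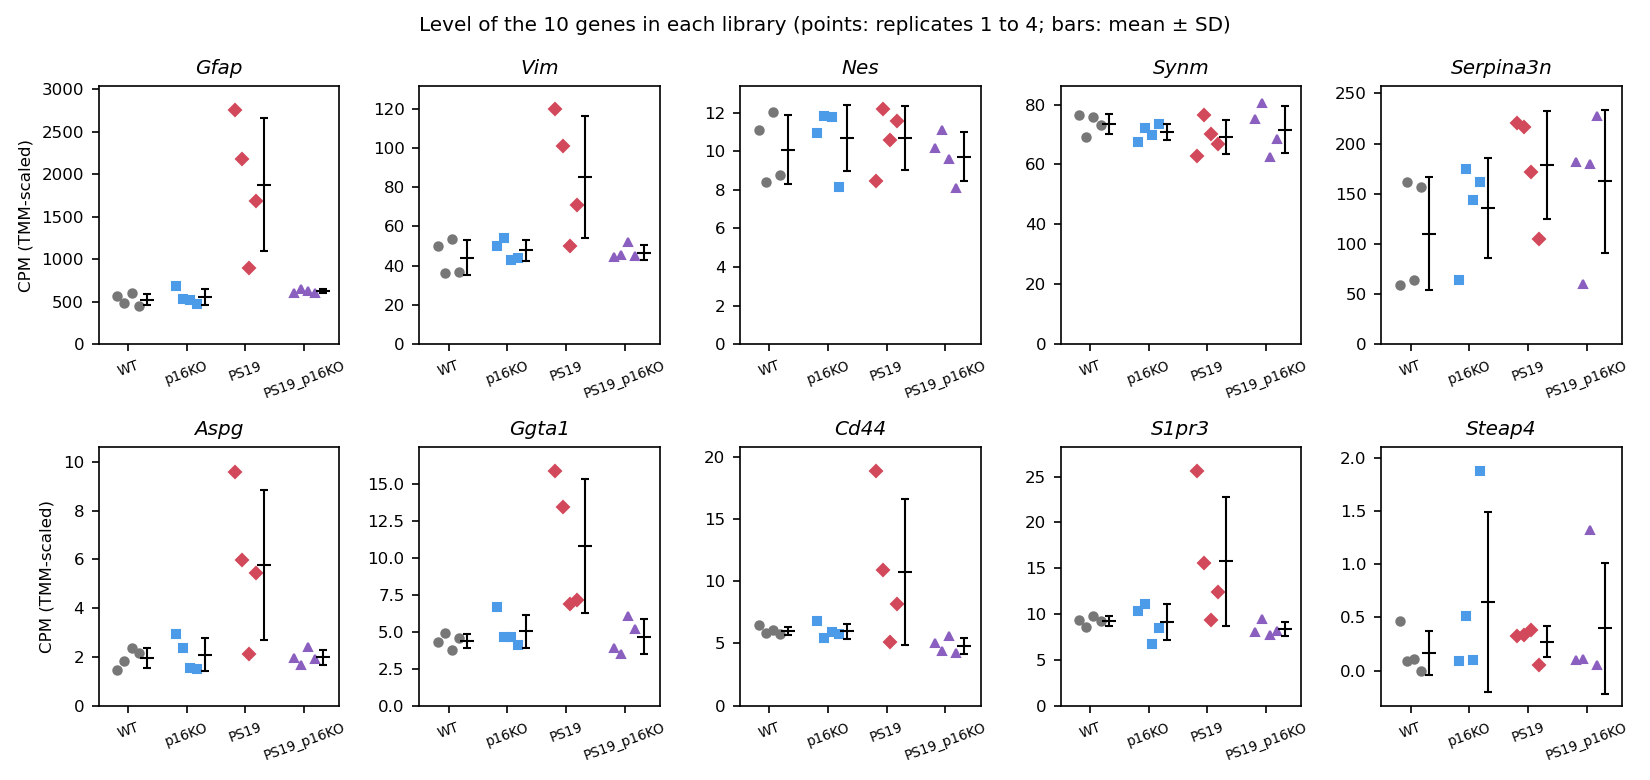
Level of each of the 10 genes (CPM, linear axis, a scale per panel) in the 4 groups; points are libraries, and the bar and its error are the mean and SD of 4 libraries. The PS19 libraries of Gfap, at 898 to 2750 CPM, stand above all others, whereas Nes, Synm and Serpina3n overlap between groups.

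The first comparison, PS19 against WT, asks what the tau transgene changes with p16 intact. Gfap, Ggta1 and Aspg were higher in PS19. Gfap rose 3.58-fold, with a log2 fold change of 1.84 ± 0.26 (SE; adjusted p = 0.00338, edgeR quasi-likelihood test, Benjamini-Hochberg). Ggta1 rose 2.47-fold (1.30 ± 0.25, adjusted p = 0.0101 in edgeR) and Aspg 2.95-fold (1.56 ± 0.33, adjusted p = 0.0187 in edgeR). These were 3 of the 9 genes tested, where 1.61% of all 16372 genes tested were called and 1.56% were called higher. In bulk tissue, more cells of a type and more RNA per cell cannot be told apart.

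The other 6 tested genes did not pass, of which 3 had an unadjusted p under 0.05, a level reached by 9.57% of all genes tested. The log2 fold change was 0.96 ± 0.23 for Vim (adjusted p = 0.0589, edgeR), 0.84 ± 0.26 for Cd44 (0.172) and 0.77 ± 0.23 for S1pr3 (0.144). For these 3 the 95% interval was above 0, from 0.46 to 1.45 for Vim. Serpina3n gave 0.69 ± 0.47, with an interval from -0.34 to 1.73. Nes gave 0.09 (interval -0.22 to 0.40) and Synm -0.09 (interval -0.24 to 0.06), so a change of Synm as large as that of Gfap lies outside its interval. The median over the 9 was 0.84, against -0.01 over all genes tested, and 8 of the 9 were positive, against 48.3%. Gfap and Ggta1 had no overlap between PS19 and WT libraries, a state reached upward by 3.57% of all genes tested.

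The PS19 libraries differed widely among themselves: replicate 3 was the lowest library for 6 of the 10 genes and replicate 1 the highest for 7. Without PS19 replicate 3, edgeR called 6 genes, Vim, Cd44 and S1pr3 in addition, and DESeq2 on all libraries called the same 6, where these settings called 2.64% and 2.42% of all genes tested. Without the 3 choroid-rich libraries, Gfap (adjusted p = 0.0262) and Ggta1 (0.0386) passed and Aspg did not (0.0696), where 2.11% of all genes tested were called. Aspg also missed the threshold in limma-voom (adjusted p = 0.0993), with the suffix digit described below as a term (0.0736), and without WT replicate 1, 2 or 4 or without PS19 replicate 1 or 2. Limma-voom called 3 genes, Gfap, Ggta1 and Vim (adjusted p = 0.0439), and the fit with the digit 2, Gfap and Ggta1, where 1.26% and 1.44% of all genes tested were called. In an edgeR fit on the PS19 and WT libraries alone none of the 9 passed, and Gfap had an adjusted p of 0.110. That fit called 70 of all 15833 genes tested. Between libraries with the same first digit of the library-name suffix, a digit whose meaning is not given, Gfap and Ggta1 were higher in PS19 in 4 of 4 pairs. Aspg, Vim, Cd44, S1pr3 and Serpina3n were higher in 3 of 4, Nes in 2 of 4 and Synm in 1 of 4. The share of all genes tested that were higher in 4 of 4 pairs was not counted.

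PS19_p16KO against PS19 asks what knocking out p16 changes in the presence of the transgene. The same 3 genes were lower without p16. Gfap fell to 0.331 of its PS19 level (log2 fold change -1.60 ± 0.26, adjusted p = 0.0171, edgeR), Ggta1 to 0.431 (-1.21 ± 0.25, 0.0283) and Aspg to 0.343 (-1.54 ± 0.33, 0.0342). These were 3 of 9, where 0.825% of all genes tested were called and 0.776% were called lower. Gfap and Ggta1 again had no overlap between the groups, a state reached downward by 2.53% of all genes tested. The comparison shares its PS19 libraries with the first.

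Cd44 had a log2 fold change of -1.16 ± 0.27 (adjusted p = 0.0529, edgeR), S1pr3 of -0.92 ± 0.23 (0.0924) and Vim of -0.87 ± 0.23 (0.125), and these did not pass. An unadjusted p under 0.05 was found for 6 of the 9, against 8.59% of all genes tested. Serpina3n gave -0.14 with an interval from -1.16 to 0.89. Nes gave -0.14 (interval -0.45 to 0.17) and Synm 0.05 (interval -0.10 to 0.20). The median over the 9 was -0.92, against 0.00 over all genes tested. Each of Gfap, Vim, Aspg, Ggta1 and Cd44 was lower in PS19_p16KO in 4 of 4 pairs that share the suffix digit. S1pr3 and Nes were lower in 3 of 4, and Synm and Serpina3n in 2 of 4. The share of all genes tested that were lower in 4 of 4 pairs with the same digit was not counted. With that digit as a term in the fit, none of the 9 passed, at adjusted p = 0.0558 for Gfap, 0.0717 for Ggta1 and 0.1075 for Aspg, where 0.531% of all genes tested were called.

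These calls ended when any of several libraries was left out. Without the 3 choroid-rich libraries none of the 9 passed, where 0.377% of all genes tested were called, and the log2 fold changes were -1.60 for Gfap (adjusted p = 0.0909), -1.36 for Ggta1 (0.0639) and -1.64 for Aspg (0.0876). None of the 9 passed either without PS19 replicate 2 (29 of all genes tested called) or without PS19_p16KO replicate 1 (49), 2 (36) or 4 (46). Gfap alone passed without PS19 replicate 1 (46 of all genes tested called), and also in limma-voom, which called 0.47% of all genes tested. Aspg alone lost its call without WT replicate 2, PS19 replicate 4 or PS19_p16KO replicate 3. Without PS19 replicate 3, 6 genes passed, and DESeq2 called 6 on all libraries, where these settings called 2.09% and 1.7% of all genes tested.

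**Figure D2:**
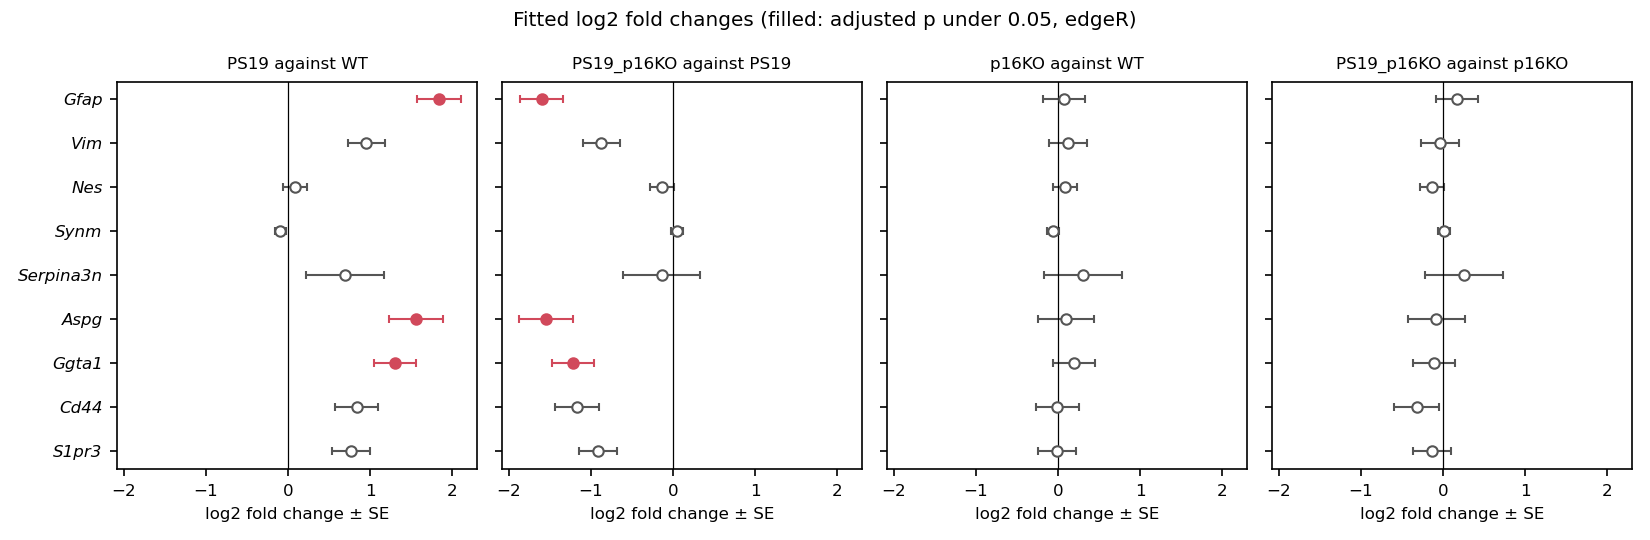
Log2 fold change ± SE (horizontal axis) of the 9 tested genes in the 4 pairwise comparisons (edgeR, 16 libraries); filled points passed an adjusted p of 0.05. Gfap lies at 1.84 in PS19 against WT and at -1.60 in PS19_p16KO against PS19, and all 9 genes lie between -0.32 and 0.30 in the other comparisons.

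The 2 remaining pairwise comparisons gave no call. In p16KO against WT, which asks what p16 loss does without the transgene, Gfap had a log2 fold change of 0.07 (95% interval -0.48 to 0.63). In PS19_p16KO against p16KO, which asks what the transgene does without p16, it was 0.17 (interval -0.38 to 0.73). A rise of Gfap as large as in PS19 against WT lies outside that interval. In each of these comparisons 0 of the 9 genes passed in edgeR, 0 had an unadjusted p under 0.05, and DESeq2 and limma-voom called 0. Of all genes tested, 0% were called in p16KO against WT and 0.0183% in PS19_p16KO against p16KO, and 3.99% and 3.65% had an unadjusted p under 0.05. For Steap4, exact two-sided permutation tests on CPM gave p = 0.457, 0.914, 0.286 and 0.571 in the order PS19 against WT, PS19_p16KO against PS19, p16KO against WT and PS19_p16KO against p16KO. Adjusted over the 4 tests, these were 0.762, 0.914, 0.762 and 0.762, and the smallest p the design allows is 0.0286.

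The interaction asks whether the transgene's effect differs with the p16 genotype. It was -1.67 ± 0.36 for Gfap (adjusted p = 0.162, edgeR), -1.41 ± 0.36 for Ggta1 (0.207) and -1.64 ± 0.48 for Aspg (0.300). None of the 9 passed, where 0.00611% of all genes tested were called. An unadjusted p under 0.05 was found for 6, the 3 named and Cd44, Vim and S1pr3, against 5.44% of all genes tested. DESeq2 called 2, Gfap (adjusted p = 0.000865) and Ggta1 (0.0227), limma-voom called 0, and edgeR called 5 without PS19 replicate 3. Without the choroid-rich libraries edgeR called 0 of the 9 and 0.00608% of all genes tested. DESeq2, and edgeR without PS19 replicate 3, called 0.538% and 0.965% of all genes tested. The difference between the transgene's effects with and without p16 was thus not past the threshold in edgeR for any of the 9.

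Per kilobase of exon, where genes can be compared with each other, Gfap led in every group, with a mean of 124 RPKM in WT and 445 in PS19. Serpina3n came next in every group (53.4 RPKM in WT, 86.4 in PS19). Vim and Synm followed with overlapping ranges in WT (9.28 RPKM each), p16KO and PS19_p16KO. In PS19 Vim, at 10.5 to 25.3 RPKM, lay wholly above Synm, at 7.94 to 9.63. S1pr3 was the fifth in every group, at 2.07 RPKM in WT. Nes, Ggta1, Cd44 and Aspg lay between 0.556 and 1.57 RPKM in WT, where Ggta1 and Cd44 overlapped, and all 4 overlapped in PS19. Steap4 had the lowest mean in every group, at 0.0527 RPKM in WT. In p16KO replicate 4, however, it was at 0.594 RPKM, above Aspg at 0.429.

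The make-up of the filament genes was different in PS19. Of the summed RPKM of Gfap, Vim, Nes and Synm, Gfap held 86.0% ± 0.58 in WT, 86.2% ± 1.76 in p16KO, 93.5% ± 1.72 in PS19 and 87.8% ± 0.17 in PS19_p16KO (SD, n = 4). The PS19_p16KO shares, at 87.59% to 87.97%, lay above all WT shares (85.29% to 86.65%) and within the p16KO range (84.76% to 88.65%). The ratio of Gfap to Vim was 13.5 ± 1.10 in WT, 13.0 ± 1.91 in p16KO, 24.2 ± 2.86 in PS19 and 14.98 ± 1.08 in PS19_p16KO. The PS19 ratios, at 20.2 to 26.7, did not overlap with those of any other group. PS19 replicate 3, whose Vim was within the WT range, was thus still apart from WT in this ratio. No test was run on the ratio, and the share of all gene pairs whose ratios did not overlap was not counted.

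**Figure D3:**
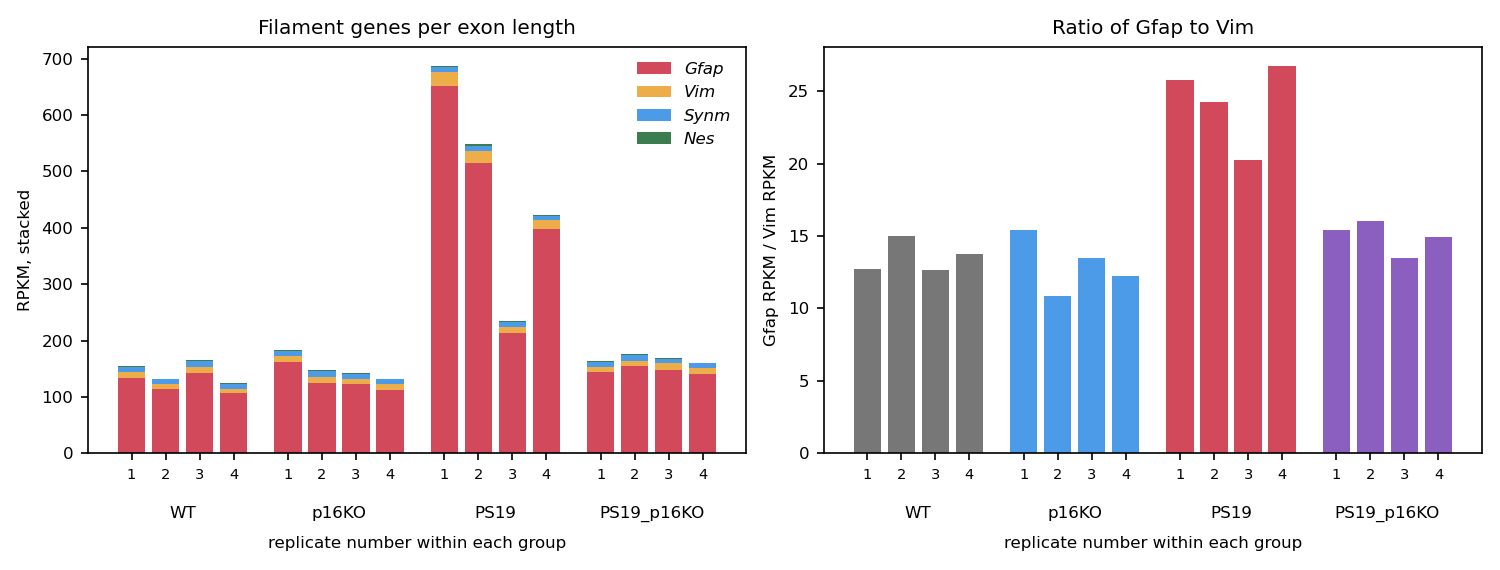
Left, RPKM of Gfap, Vim, Synm and Nes stacked in a bar per library; right, the ratio of Gfap RPKM to Vim RPKM in each library, by group and replicate number. Gfap makes up most of every bar, a mean of 93.5% in PS19, and the PS19 ratios, at 20.2 to 26.7, stand above all others.

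Gfap was also set against the summed astrocyte identity markers of the same library. The most abundant markers weigh most in that sum: Slc1a2 had 2924 and Glul 1572 of a mean of 7480 CPM in WT. The share of astrocyte number in the rise of Gfap was not tested. Gfap per 1000 CPM of those markers was 70.2 ± 10.9 in WT, 72.9 ± 9.98 in p16KO, 219 ± 84.4 in PS19 and 86.1 ± 6.87 in PS19_p16KO (SD, n = 4). The PS19 mean was 3.12 times that of WT. On this scale Aspg was at 2.58 times and Ggta1 at 2.16 times WT in PS19, and Synm at 0.833 times.

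Across libraries Gfap, Aspg, Ggta1 and Vim had like profiles. The root-mean-square difference of centred log2 CPM over the 16 libraries, 0 for identical profiles, was 0.29 between Gfap and Aspg, 0.36 for Ggta1, 0.39 for Vim, 0.45 for Cd44 and 0.46 for S1pr3. It was 0.78 for Nes, 0.82 for Synm and 0.91 for Serpina3n, and the median over 13311 genes was 0.80. Nearest to Gfap outside the set came C4b, a complement component, at 0.11. It was followed by C1qb (0.16), Tyrobp (0.16), C1qa (0.19), C1qc (0.19) and Trem2 (0.21), all genes of microglia. C4b had 58.8 CPM ± 8.08 in WT, 61.0 ± 9.08 in p16KO, 220 ± 92.4 in PS19 and 71.4 ± 6.32 in PS19_p16KO (SD, n = 4). Serpina3n had no close profile: its nearest genes, P2rx3, Tle6, Fzd5, Bmf, Ccn2 and Ptger3, differed from it by 0.51 to 0.54, against its own SD of 0.71. All likenesses share the 16 libraries and the group differences, and are descriptions.

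**Figure D4:**
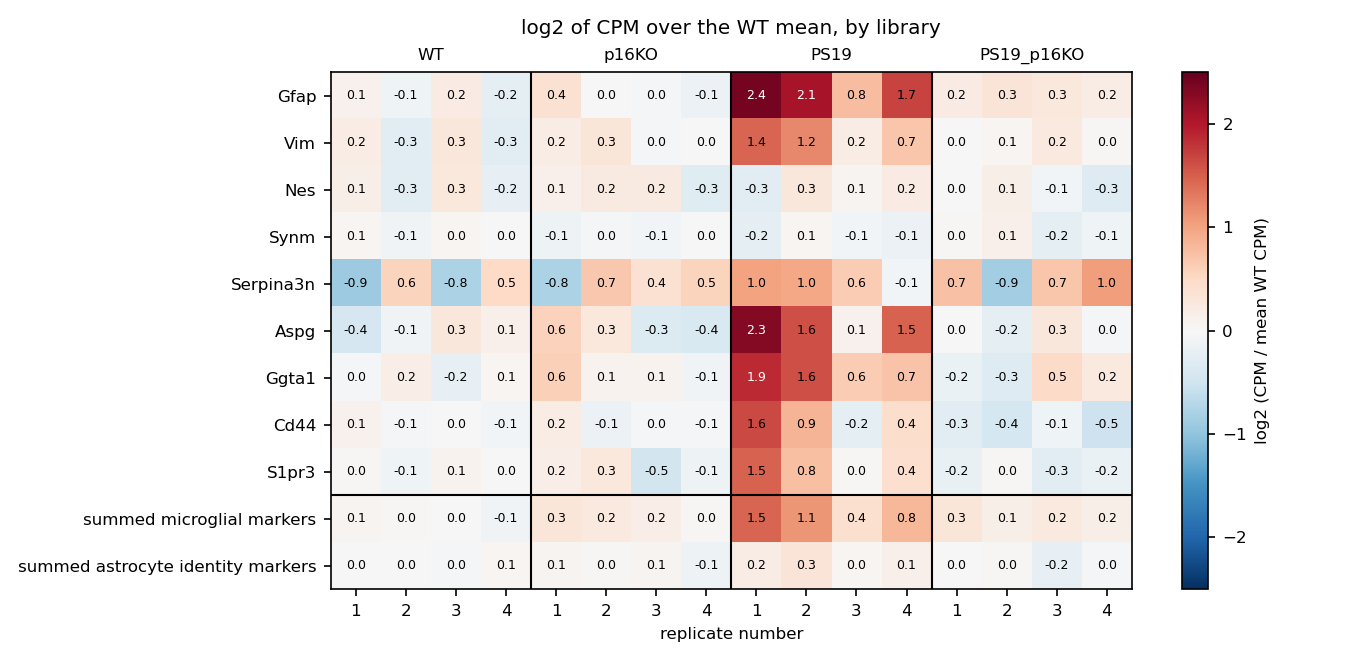
Log2 of CPM over the mean WT CPM for 9 genes and, below them, for the summed microglial and astrocyte identity markers, in each of the 16 libraries (colour and printed value); Steap4 is left out because of its low counts. PS19 replicates 1, 2 and 4 are high for Gfap, Vim, Aspg, Ggta1, Cd44 and S1pr3, and Serpina3n varies within every group.

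The sum of the microglial markers was highest in the PS19 libraries, as Gfap was, though not each marker followed. The 14 summed to 359 to 399.9 CPM in WT, 390.2 to 472 in p16KO, 507 to 1050 in PS19 and 424 to 474 in PS19_p16KO, and none was at 0. Within PS19 the sums were 1050, 820, 507 and 684 CPM in replicates 1 to 4, in the same order as Gfap. The order was also the same in p16KO but differed in WT and PS19_p16KO. In PS19_p16KO, replicate 2 had the highest Gfap (651 CPM) and the lowest sum (424 CPM). Of the 14, 11 rose in PS19 against WT (edgeR), where 1.61% of all genes tested were called. In PS19_p16KO against PS19, 8 of the 14 fell, where 0.825% of all genes tested were called. The medians of the 14 were 1.046 and -0.83 on the log2 scale. Without the 3 choroid-rich libraries 10 and 3 passed, where 2.11% and 0.377% of all genes tested were called. P2ry12 and Tmem119, known as markers of resting microglia, did not pass: P2ry12 had -0.01 ± 0.08 in PS19 against WT and 0.19 ± 0.08 in PS19_p16KO against PS19 (adjusted p = 0.986 and 0.521, edgeR), and Tmem119 0.02 ± 0.08 and 0.06 ± 0.08 (0.98 and 0.879). Among those that passed in each was Tyrobp, an adaptor of microglial receptors, at 1.65 ± 0.23 (adjusted p = 0.00117) and -1.43 ± 0.23 (adjusted p = 0.00748). The part of microglial RNA in the levels of Cd44, Vim and other genes that microglia also express was not tested.

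**Figure D5:**
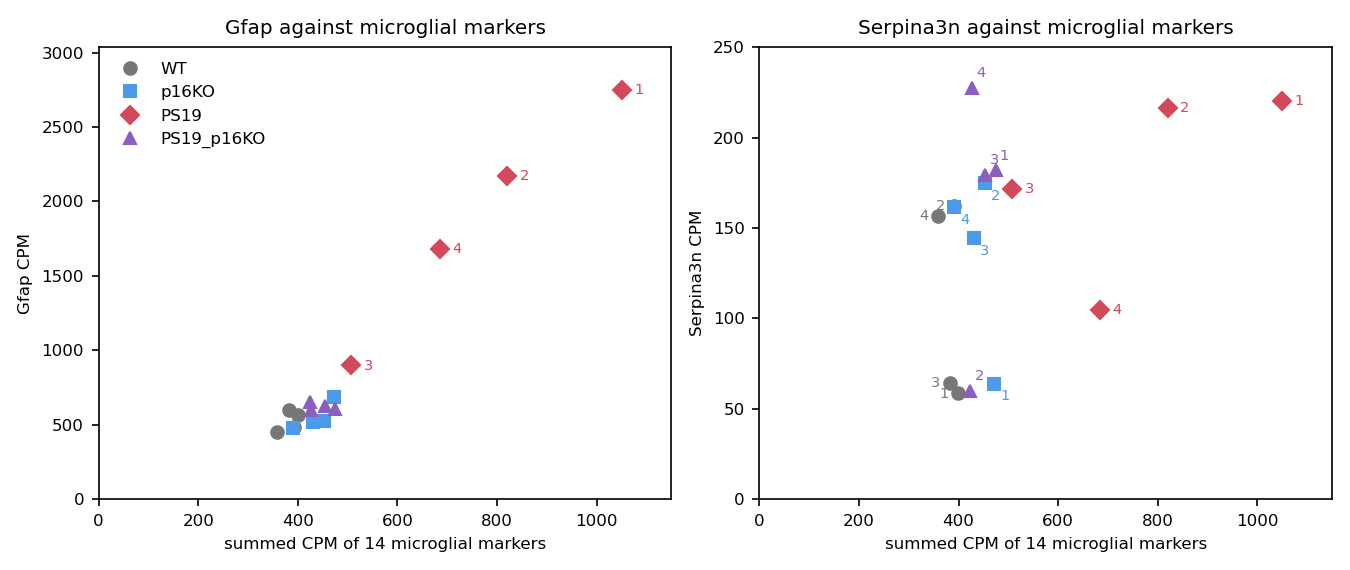
Level of Gfap (left) and Serpina3n (right) in CPM against the summed CPM of 14 microglial markers, a point per library, coloured by group, with replicate numbers beside the PS19 points (left) and all points (right). The PS19 libraries reach 507 to 1050 CPM of microglial markers with 898 to 2750 CPM of Gfap, while Serpina3n is low, at 58.4 to 64.1 CPM, in 4 libraries outside PS19.

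Other genes of reactive astrocytes changed in part. For comparison, edgeR called 1.61% of all genes tested in PS19 against WT and 0.825% in PS19_p16KO against PS19. Of 6 further genes known to rise in reactive astrocytes of many kinds, 4 were tested and 2 rose in PS19 against WT: Osmr, the receptor for oncostatin M (1.92 ± 0.26, adjusted p = 0.0011, edgeR), and Cxcl10, a chemokine (1.62 ± 0.36, 0.0212). The median of the 4 was 0.88, and both also passed in DESeq2, in limma-voom and without the choroid-rich libraries. Both fell in PS19_p16KO against PS19, Osmr by 1.56 ± 0.26 (adjusted p = 0.00938, edgeR) and Cxcl10 by 1.55 ± 0.36 (0.0458) on the log2 scale. Without the 3 choroid-rich libraries neither passed in that comparison. In limma-voom and without PS19 replicate 3 Osmr alone passed. Of 11 genes linked to neurotoxic reactive astrocytes, the A1 list, 1 rose in PS19, the proteasome subunit Psmb8 (1.13 ± 0.23, adjusted p = 0.0102, edgeR), with a list median of 0.69. An unadjusted p under 0.05 was found for 6 of the 11, against 9.57% of all genes tested, DESeq2 and limma-voom called 2 each, and 1 passed without the choroid-rich libraries. In PS19_p16KO against PS19 the A1 list had 0 calls in edgeR, 6 genes at an unadjusted p under 0.05, 0 calls in DESeq2 and 0 in limma-voom.

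The shares of all genes called, 1.61% and 0.825%, apply to the next lists too. Of 13 genes linked to reactive astrocytes after injury, the A2 list, 11 were tested and 3 rose in PS19. They were Stat3, the transcription factor downstream of Osmr (0.59 ± 0.07, adjusted p = 0.000113, edgeR), Cd14, a lipopolysaccharide co-receptor that myeloid cells express (1.57 ± 0.25, 0.00204), and the cytokine Clcf1 (1.37 ± 0.34, 0.0418). Clcf1 lost its call in DESeq2, in limma-voom and without the choroid-rich libraries, each of which called 2. The list median was 0.36, and 6 of the 11 had an unadjusted p under 0.05, against 9.57% of all genes tested. Stat3 fell by 0.33 ± 0.07 (adjusted p = 0.0252, edgeR) and Cd14 by 1.17 ± 0.25 (0.0272) in PS19_p16KO against PS19. Of 14 astrocyte identity markers, 1 rose in PS19, Atp1b2, a sodium pump subunit, by 0.27 ± 0.06 (adjusted p = 0.0281, edgeR), and all 14 were positive, with a median of 0.20. An unadjusted p under 0.05 was found for 9 of the 14, against 9.57% of all genes tested, DESeq2 called 2, limma-voom 1, and 1 passed without the choroid-rich libraries. In PS19_p16KO against PS19, 1 of the 14 fell, the glutamate transporter Slc1a2, by 0.36 ± 0.08 (adjusted p = 0.0458, edgeR). In that comparison 8 of the 14 had an unadjusted p under 0.05, against 8.59% of all genes tested, DESeq2 called 3 and limma-voom 0. For the A2 list these counts were 5 of 11, 2 and 1. Without PS19 replicate 3, 4 A1 genes and 4 identity markers passed in PS19 against WT and 2 and 3 in PS19_p16KO against PS19. That setting called 2.64% and 2.09% of all genes tested. Without the 3 choroid-rich libraries 1 A2 gene and 0 identity markers passed in PS19_p16KO against PS19, where 0.377% of all genes tested were called. The water channel Aqp4 had 0.55 ± 0.15 in PS19 against WT and -0.62 ± 0.15 in PS19_p16KO against PS19. It did not pass in edgeR on all libraries (adjusted p = 0.0911 and 0.074). DESeq2 called Aqp4 in both (adjusted p = 0.00212 and 0.000377), as did edgeR without PS19 replicate 3 (0.00214 and 0.00137). Limma-voom, and edgeR without the choroid-rich libraries, called it in neither. The identity markers summed to 7713 to 9337 CPM in PS19 and to 7274 to 7746 in WT.

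No filament gene of other cells and no filament linker passed. Of 14, among them neurofilaments, lamins and plectin, edgeR called 0 in PS19 against WT, where 0 had an unadjusted p under 0.05, and 0 in PS19_p16KO against PS19, where 1 did; DESeq2 and limma-voom called 0 in each. Their medians were -0.02 and 0.01. Across all genes tested, 1.61% were called in PS19 against WT and 0.825% in PS19_p16KO against PS19. Of 28 relatives and partners of the genes outside the filament group, 20 were tested and 2 rose in PS19. They were Sgpl1, the lyase that breaks down the S1pr3 ligand (0.47 ± 0.09, adjusted p = 0.00549, edgeR), and Msn, or moesin, which links Cd44 to actin (0.60 ± 0.12, 0.0128). Without the choroid-rich libraries and in DESeq2 3 passed, S1pr5 in addition, and in limma-voom the same 2 did. Both fell in PS19_p16KO against PS19, Msn by 0.58 ± 0.12 (adjusted p = 0.0283, edgeR) and Sgpl1 by 0.38 ± 0.09 (0.0414). Without the 3 choroid-rich libraries neither passed in that comparison, and in limma-voom Msn alone did. The list median was 0.08 in PS19 against WT and -0.02 in PS19_p16KO against PS19.

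The microglial and astrocyte identity markers are described above. Of the other cell types listed here, edgeR on all 16 libraries called no marker in either comparison. Among all genes tested, 1.61% were called in PS19 against WT and 0.825% in PS19_p16KO against PS19. In PS19 against WT, 0 of 10 endothelial and 0 of 10 mural and fibroblast markers passed, with 2 of each at an unadjusted p under 0.05 and 0 calls in DESeq2 and limma-voom. In PS19_p16KO against PS19 the counts were 0 and 0, with 1 of each at an unadjusted p under 0.05 and again 0 calls in the other tools. Of 8 tested markers of neural stem and dividing cells, in which Nes is also expressed, 0 passed in each comparison, with 2 at an unadjusted p under 0.05 in each and 0 calls in DESeq2 and limma-voom, and 1 passed in each without PS19 replicate 3. Of 10 choroid plexus, 10 oligodendrocyte and 10 neuronal markers edgeR called 0 in each comparison, with 0, 5 and 0 at an unadjusted p under 0.05 in PS19 against WT and 2, 1 and 4 in PS19_p16KO against PS19. DESeq2 called 1 oligodendrocyte marker in PS19 against WT, where it called 2.42% of all genes tested. The other counts of DESeq2 and limma-voom for these lists were 0. Without the choroid-rich libraries edgeR called 4 oligodendrocyte markers in PS19 against WT, and 2.11% of all genes tested. Of all genes tested, 9.57% had an unadjusted p under 0.05 in PS19 against WT and 8.59% in PS19_p16KO against PS19. The 5 of 10 oligodendrocyte and 4 of 10 neuronal markers were above those shares. Without PS19 replicate 3, 2.64% and 2.09% of all genes tested were called. In PS19 against WT the list median was 0.261 for oligodendrocyte markers (9 of 10 positive) and 0.205 for neural stem and dividing cell markers (8 of 8). It was -0.053 for neuronal, -0.083 for endothelial, -0.123 for mural and fibroblast and -0.866 for choroid plexus markers. In PS19_p16KO against PS19 the first 2 lists had medians of -0.001 and -0.172. The summed level of the endothelial markers was 163 to 199 CPM in PS19 and 181 to 213 in WT. The mural and fibroblast markers summed to 116 to 142 CPM in PS19 and 112 to 173 in WT. None of these markers was at 0.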

How the data were processed

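Hippocampal RNA of female mice (16 libraries) was analysed from 1 table of raw counts per gene that the authors deposited. Per the submitters' processing notes, the tools were STAR 2.5.2b, Trimmomatic 0.36, Subread 1.5.2, featureCounts and DESeq2, with build GRCm38. Annotation release and strand setting are not given there. Symbols, exon lengths and coordinates (1-based) came from GENCODE M21 by Ensembl identifier, and 49412 of 49671 gene rows had a symbol. The 92 ERCC spike-in rows, 0.574% to 1.06% of a library's counts, were left out.

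Counts were fitted with edgeR 4.0.16 in R 4.3.3 (filterByExpr with a minimum count of 10, TMM scaling, robust quasi-likelihood, 1 mean per group over 16 libraries), and 16372 genes were tested. A call is a Benjamini-Hochberg adjusted p under 0.05 over all of them. Standard errors come from the F statistic and 95% intervals from its degrees of freedom. CPM and RPKM are TMM-scaled. The script was tested on simulated counts. Every pair of replicates differed by more than sampling noise (chi-square per degree of freedom 4.56 to 24.3), and no library was merged. Alternatives were other scalings and filters, DESeq2 1.42.0, limma-voom (limma 3.58.1), a replicate block, the suffix digit, the compared groups alone, each library left out and, chosen after seeing the data, the 3 choroid-rich libraries left out. The members and lists were chosen with earlier results of these data known. Named are the 10 genes, up to 2 genes of each list with the smallest p in each of the main comparisons, and the 6 profiles nearest to Gfap and to Serpina3n (prior count 2, mean log2 CPM above 0). Clcf1, S1pr5, P2ry12, Tmem119 and markers given as examples of a list were named beyond that rule, after their values were seen. Promoter windows are from RefSeq.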

Additional observations from a re-analysis of the deposited data

Results flagged for a closer look

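In 1 gene, Steap4, a library stood apart from the other 3 of its group. PS19 replicate 4 was the lowest of PS19 at 0.0543 CPM (1 count), with the others at 0.323 to 0.378 CPM. PS19_p16KO replicate 3 was the highest of its group at 1.325 CPM (25 counts), with the others at 0.0546 to 0.106 CPM, and it held 5751 CPM of choroid plexus markers. Groups of 4 libraries were examined for all 10 genes, 40 in all, and chance marks about 1 in 20.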

How the results depend on the processing

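In PS19 against WT, 3 of the 9 genes were called. The count was 6 in DESeq2, 0 with the compared groups alone and 2 to 6 with 1 library left out (6 without PS19 replicate 3). Over all alternatives 70 to 438 of all genes tested were called, against 264. In PS19_p16KO against PS19, 3 were called. The count was 6 in DESeq2, 1 in limma-voom, 1 without a filter, 0 with the suffix digit as a term, 0 with the compared groups alone, 0 without the choroid-rich libraries and 0 to 6 with 1 library left out (6 without PS19 replicate 3). All genes called numbered 8 to 347, against 135. The interaction, with 0 calls, had 2 in DESeq2 and 0 to 5 with 1 library left out. Gfap kept its call in PS19 against WT in 25 of 26 alternatives and in PS19_p16KO against PS19 in 19 of 26. The cause of these changes was not tested.

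Replicate numbers did not pair the libraries: deviations of same-numbered libraries correlated at -0.388 to 0.223, and 4 of 16 libraries correlated best with their own number. With a replicate block, 3 genes were called in PS19 against WT and 1, Gfap, in PS19_p16KO against PS19. Of all 16372 genes tested, 238 and 134 were called in that setting.

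Signs changed only for genes without a call in the comparison. In p16KO against WT, Cd44 was 0.0627 with the suffix digit, and without the choroid-rich libraries Cd44 was 0.0442, S1pr3 0.031 and Serpina3n -0.00622. Serpina3n in PS19_p16KO against p16KO was -0.0456 with the suffix digit. With 1 library left out, the ranges in p16KO against WT were -0.0497 to 0.1435 for Gfap, -0.1157 to 0.2234 for Aspg, -0.0762 to 0.0385 for Cd44 and -0.1147 to 0.1098 for S1pr3. In PS19_p16KO against p16KO they were -0.091 to 0.0332 for Vim, -0.044 to 0.0755 for Synm, -0.21 to 0.1289 for Aspg and -0.2644 to 0.0564 for Ggta1. In PS19_p16KO against PS19 they were -0.00898 to 0.1145 for Synm and -0.3435 to 0.1379 for Serpina3n. Depth limits Steap4, with 114 counts in all.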

Other observations

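Serpina3n had a highest library 2.77 times the lowest in WT, 2.74 times in p16KO, 2.10 times in PS19 and 3.79 times in PS19_p16KO, while that ratio was at most 1.44 for Gfap outside PS19.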
